A study of Mus musculus with 9 samples.

Results

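The genes described here are 10 contractile and YAP-responsive genes of the mouse pancreatic cancer line Pan02, chosen by symbol: Acta2, Actg2, Tagln, Cnn1, Myl9, Tpm1, Tpm2, Ccn1, Ccn2 and Ankrd1. Each had 1 named probe set on the array, and together they are 10 of the 19505 genes with a value. RNA was measured on Clariom S arrays in 4 lines made from Pan02, a murine pancreatic ductal adenocarcinoma line, by lentiviral transduction. Pan02OE carries an expression construct for the mitochondrial NOD-like receptor NLRX1 and Pan02OE-CTL a control construct of the same system, whereas Pan02KD carries shRNA against NLRX1 and Pan02KD-CTL a scrambled shRNA. Each line was grown in complete medium and in complete medium with a low dose of hydrogen peroxide (H2O2) for 24 hours, with 1 array for each line and medium, 8 in all. The 2 arrays of a line are the same transduced population in 2 media, so each p-value measures the spread between arrays and not between independently made lines. All 4 lines were selected with puromycin after transduction, the knockdown rests on a single shRNA sequence, and no untransduced Pan02 cells were among the arrays.

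Nlrx1 checks the labels. It read 17.10 and 17.31 (log2 signal, normal medium and H2O2) in Pan02OE against 6.89 and 6.90 in Pan02OE-CTL. The arrays labelled Pan02KD read 6.68 and 6.56, and Pan02KD-CTL 5.96 and 6.40. The gene thus did not read lower under the knockdown label (log2 difference 0.44, SE 0.17, adjusted p = 0.15). All 6 arrays without the NLRX1 construct lie below 7.48, the brightest value of 23 antigenomic background probe sets, so these readings do not show whether Nlrx1 differs between the lines of the knockdown system, and whether their labels were exchanged was not tested. Every direction drawn from that system below is a direction for the arrays labelled Pan02KD.

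Contractile genes encode the actin, myosin and tropomyosin of stress fibers and of smooth muscle. Many are transcribed through serum response factor (SRF) with the actin-sensing cofactors MRTF-A and MRTF-B or, in smooth muscle, myocardin, which bind at CArG boxes in promoters. YAP and TAZ are coactivators that the Hippo kinases hold in the cytoplasm. When cells spread, or tension in the actin network is high, they enter the nucleus and act through TEAD factors, and Ccn1, Ccn2 and Ankrd1 are the target genes read most often as a measure of that activity.

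To show what these promoters hold, the 300 bases around each start (250 before, 50 after, RefSeq, GRCm38.p6) were searched on both strands. Such a window was at hand for 7 of the 10 genes, and Actg2, Tagln and Ccn2 had no entry. The motif bound by TEAD factors (CATTCC, or GGAATG on the other strand) occurred in 4 of the 7, those of Acta2, Tpm1, Ccn1 and Ankrd1, and in 14.66% of all 32851 windows. The CArG box in its strict form (CCWWWWWWGG, where W is A or T) was found in the Myl9 window and in 1.63% of all windows. Forms of the box with other bases inside it were not searched. TATAAA was found in the Ccn1 window (13.62% of all windows). The AP-1 motif TGANTCA, which overlaps none of the others, was in 0 of the 7 and in 7.81% of all. A match of letters is a description and not a binding site. The sequences below are those that held a TEAD motif or the CArG box, 5′ to 3′ on the gene's strand, with TEAD, CArG and TATA motifs in capitals. For Acta2 and Tpm1, 30 bases around the motif are shown, because the motif lies inside the annotated extent of the gene.
Acta2, bases −158 to −129, chr19:34255502-34255531, minus strand: gagcagaacagaGGAATGcagtggaagaga
Tpm1, bases −68 to −39, chr9:67049252-67049281, minus strand: tggctgtcctaaGGAATGcggtcgcccccc
Ankrd1, bases −250 to −1, chr19:36119845-36120094, minus strand: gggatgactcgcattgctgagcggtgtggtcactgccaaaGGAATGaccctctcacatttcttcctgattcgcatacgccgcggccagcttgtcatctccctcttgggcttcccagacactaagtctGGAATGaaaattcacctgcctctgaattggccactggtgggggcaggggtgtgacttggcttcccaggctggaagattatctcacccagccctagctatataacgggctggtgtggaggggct
Ccn1, bases −250 to −1, chr3:145649986-145650235, minus strand: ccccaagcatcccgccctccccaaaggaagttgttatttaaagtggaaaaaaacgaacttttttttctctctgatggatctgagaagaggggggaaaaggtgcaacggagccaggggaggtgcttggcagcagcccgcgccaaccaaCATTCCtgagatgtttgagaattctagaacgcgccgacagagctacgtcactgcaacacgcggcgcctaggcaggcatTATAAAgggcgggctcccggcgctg
Myl9, bases −250 to −57, chr2:156775214-156775407, plus strand: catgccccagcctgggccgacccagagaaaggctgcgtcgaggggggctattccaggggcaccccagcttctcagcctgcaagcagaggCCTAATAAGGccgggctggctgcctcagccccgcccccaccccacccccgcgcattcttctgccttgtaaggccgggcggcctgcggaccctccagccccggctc
Ankrd1 holds the TEAD motif at bases −210 to −205 and again at −123 to −118, counted back from the start, and Ccn1 holds it at −103 to −98 with TATAAA at −25 to −20.

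Over the 4 lines, the members fell into 3 groups by level. Actg2, Tagln, Cnn1 and Myl9 lay below the background of 7.48 in every line. Tpm1, Tpm2, Ccn1 and Ankrd1 lay above it in every line, and Acta2 and Ccn2 crossed it from line to line. The range of the 4 line means exceeded 2 on the log2 scale for Acta2 (3.92) and Ccn2 (2.40), 2 of the 10, and for 3.01% of all genes. Its median was 0.57 over the members and 0.43 over all genes.

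**Figure D1:**
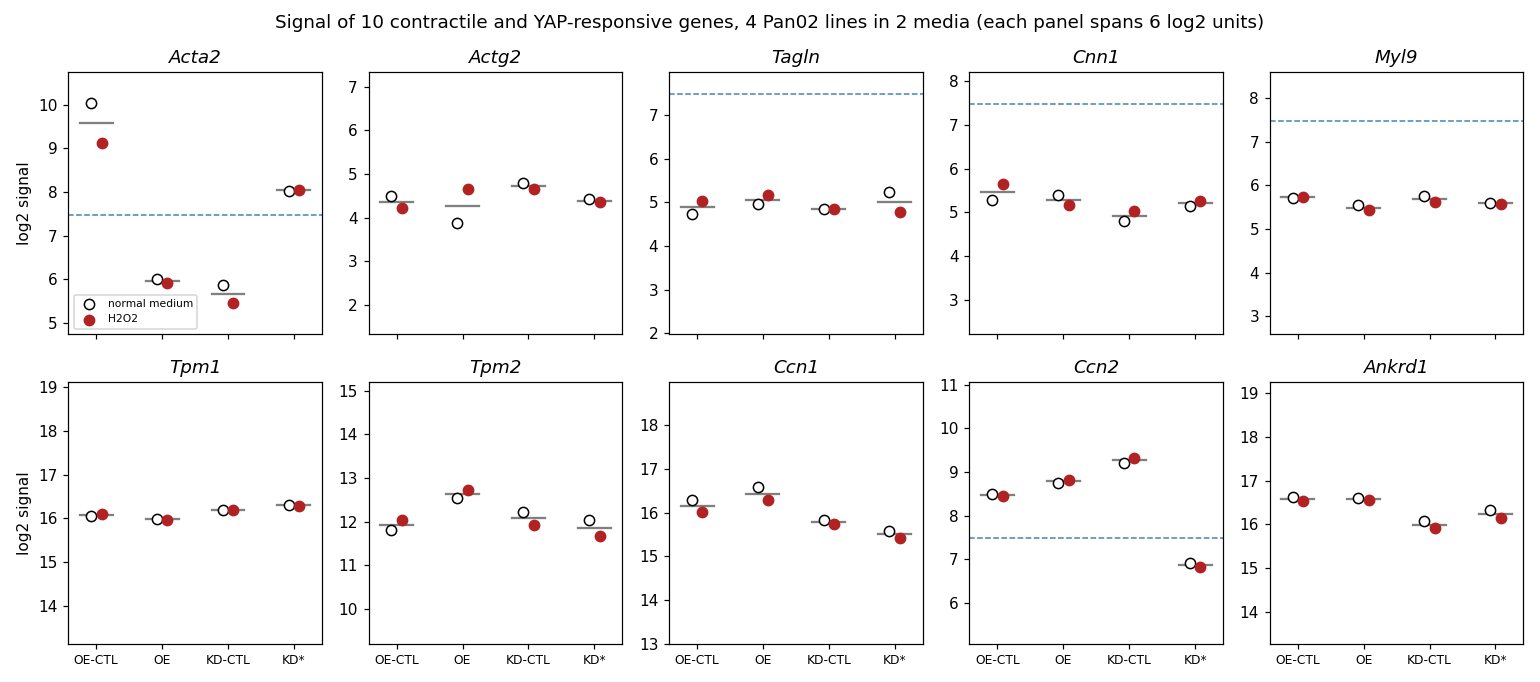
Log2 signal (y axis) of each of the 10 genes in the 4 lines (x axis). Open circles are arrays in normal medium, filled circles arrays in H2O2, grey bars the mean of both, and the dashed line the brightest background value of 7.48 where it falls in a panel. KD* marks the arrays labelled Pan02KD, in which Nlrx1 did not read lower. Acta2 spans 5.47 to 10.04 and Ccn2 6.82 to 9.32, while Tpm1 stays between 15.96 and 16.31.

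Pan02OE was compared with Pan02OE-CTL to ask what the NLRX1 construct changes within its own system. There, 2 of the 10 genes passed the test (limma, Benjamini-Hochberg adjusted p under 0.05), 1 lower and 1 higher, where 16.5% of all 19505 genes passed. Acta2 fell and Tpm2 rose. None of the 3 YAP target genes passed. In the arrays labelled Pan02KD against Pan02KD-CTL, 2 of the 10 passed as well, Acta2 higher and Ccn2 lower, against 13.6% of all genes. The median log2 difference of the 10 genes was −0.05 in the Pan02OE comparison, against 0.04 over all genes. In the comparison of the arrays labelled Pan02KD it was 0.00 for the 10 genes and 0.00 for all genes. The difference between these comparisons passed for 3 of the 10, Acta2, Ccn2 and Tpm2, against 22.3% of all genes.

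Acta2 encodes smooth muscle α-actin, the actin of vascular smooth muscle and of activated fibroblasts. In Pan02OE-CTL it read 10.04 in normal medium and 9.13 in H2O2. In Pan02OE it read 6.02 and 5.91. The arrays labelled Pan02KD read 8.03 and 8.05, and those of Pan02KD-CTL 5.87 and 5.47. The arrays of Pan02OE-CTL are thus the highest and those labelled Pan02KD the next, and neither pair overlaps any other line. In Pan02OE the gene fell by 3.62 on the log2 scale (SE 0.22, adjusted p = 9.6e-06) and rose in the arrays labelled Pan02KD by 2.38 (SE 0.22, adjusted p = 1.9e-04). Pan02OE and Pan02KD-CTL both lie below the background, so the differences are lower bounds, at least 4.3-fold in the first comparison and at least 1.48-fold in the second.

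The spread between the control lines was as large. Acta2 was lower in Pan02KD-CTL than in Pan02OE-CTL by a log2 difference of −3.92 (SE 0.22, adjusted p = 4.3e-06, at least 4.3-fold). It was also lower in the arrays labelled Pan02KD than in Pan02OE-CTL (−1.54, SE 0.22, adjusted p = 0.0029). Pan02OE and Pan02KD-CTL differed by 0.30 (95% interval −0.20 to 0.79, adjusted p = 0.52), both below the background, and have no order. Of the 6 pairs of lines, Acta2 passed the test in 5, and these pairs share arrays.

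The list of 10 smooth muscle markers includes the members Acta2, Actg2, Tagln and Cnn1, whose readings are used again here. Of the 10, 2 exceeded 7.48 in some line, Acta2 itself and Smtn, which encodes smoothelin and read 12.42 to 13.08 over the 4 lines. The defining markers Myh11 (smooth muscle myosin heavy chain, 6.64 to 7.01), Myocd (myocardin, 4.31 to 4.75) and Des (desmin, 4.45 to 4.76) did not. The summed linear signal of the list was 9761 in Pan02OE-CTL, 8019 in Pan02OE, 7276 in the arrays labelled Pan02KD and 5867 in Pan02KD-CTL, of which Smtn made up 88.7% to 94.7%. Of 8 fibroblast markers measured, 2 exceeded background in some line, Pdgfrb and Dcn, and the small proteoglycan gene Dcn read 10.47 in the arrays labelled Pan02KD against 4.71 to 5.22 elsewhere. The summed signal of that list was 400 in Pan02OE, 501 in Pan02OE-CTL, 1077 in Pan02KD-CTL and 1991 in the arrays labelled Pan02KD, while its collagen genes Col1a1, Col1a2 and Col3a1 were below background in all 4 lines. The part of these markers in the Acta2 result was not tested. Ductal epithelial markers fit the label in part, with 7 of 9 measured above background in some line, while Epcam and Cldn4 were below it in all 4. Their summed signal ran from 79225 in the arrays labelled Pan02KD to 252528 in Pan02OE. All 5 endothelial and all 5 measured myeloid markers were below background. In such bulk RNA, fewer cells of a type and less RNA per cell cannot be told apart.

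The other smooth muscle members gave no call in any comparison. Actg2, the enteric smooth muscle actin, read from 3.89 to 4.79 over the 8 arrays. Tagln, which encodes the actin-binding protein transgelin, read 4.74 to 5.23. Cnn1, the gene of calponin, read 4.79 to 5.64, and Myl9, that of a regulatory myosin light chain, 5.43 to 5.76. These readings lie within the range of the background probe sets, 3.40 to 7.48, and do not show whether the genes differ between lines. The highest line mean exceeded 7.48 for 8787 of the 19505 genes.

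The tropomyosins, which lie along the actin filament and set which myosins and other proteins reach it, were both well above background. Tpm1 read 15.98 as the mean of Pan02OE, 16.08 in Pan02OE-CTL, 16.30 in the arrays labelled Pan02KD and 16.19 in Pan02KD-CTL. It passed the test in none of the 6 pairs of lines. The difference between Pan02OE and its control was −0.10 (95% interval −0.43 to 0.22), and that of the arrays labelled Pan02KD 0.11 (−0.22 to 0.43).

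Tpm2 read 12.55 and 12.74 in Pan02OE (normal medium, H2O2) and 11.81 and 12.05 in Pan02OE-CTL, with no overlap between these lines. It read 12.03 and 11.68 in the arrays labelled Pan02KD and 12.22 and 11.92 in Pan02KD-CTL, which overlap. The rise in Pan02OE was 0.72 on the log2 scale (SE 0.19, adjusted p = 0.032). It was 0.74 within normal medium and 0.69 within H2O2. On leaving out any 1 array of Pan02OE or Pan02OE-CTL the Tpm2 difference was 0.52 to 0.91 and the call was lost, with adjusted p from 0.055 to 0.27. In this and every later fit without an array, the lone array left in its line is assumed to vary like the other lines. The difference in the arrays labelled Pan02KD was −0.22 (SE 0.19, adjusted p = 0.54).

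The YAP-responsive members differed among themselves, and Ccn2 differed most. Ccn2 encodes connective tissue growth factor, a matricellular protein. It read 9.22 and 9.32 in Pan02KD-CTL, 8.75 and 8.82 in Pan02OE, 8.50 and 8.45 in Pan02OE-CTL, and 6.93 and 6.82 in the arrays labelled Pan02KD. No line overlaps another. Under the knockdown label the gene fell by 2.40 on the log2 scale (SE 0.15, adjusted p = 1.8e-05), at least 3.46-fold since that line is below the background. Pan02OE and Pan02OE-CTL differed by 0.31 (SE 0.15, 95% interval −0.03 to 0.65, adjusted p = 0.22).

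Ccn2 was also lower in the arrays labelled Pan02KD than in Pan02OE-CTL, where the log2 difference was −1.60 (SE 0.15, adjusted p = 2.6e-04, at least 1.99-fold). It was higher in Pan02KD-CTL than in Pan02OE-CTL (0.79, SE 0.15, adjusted p = 0.0060), a call lost without the Pan02OE-CTL array in H2O2 (0.76, adjusted p = 0.064). From Pan02KD-CTL to Pan02OE (−0.48, adjusted p = 0.10) and from Pan02OE to Pan02OE-CTL the neighbors in this order did not pass the test.

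Ccn1 encodes CYR61, a matricellular protein of the same CCN family. Its 8 readings were 16.58 and 16.28 in Pan02OE (normal medium, H2O2), 16.29 and 16.02 in Pan02OE-CTL, 15.83 and 15.74 in Pan02KD-CTL, and 15.59 and 15.42 in the arrays labelled Pan02KD. Both lines of the expression system lie above both lines of the shRNA system. Within a system the difference was 0.27 for Pan02OE (SE 0.15, adjusted p = 0.29) and −0.28 for the arrays labelled Pan02KD (SE 0.15, adjusted p = 0.28), and neither passed. With trend and robust moderation of the variances both did, with adjusted p of 0.036 and 0.034. Across systems it was lower in the arrays labelled Pan02KD than in Pan02OE-CTL (−0.65, SE 0.15, adjusted p = 0.030). That call was lost on leaving out any array of those lines, where the difference in Ccn1 was −0.70 to −0.61 (adjusted p 0.15 to 0.20).

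Ankrd1 encodes the ankyrin repeat protein CARP, abundant in heart muscle and a YAP target in many cell types. It read 16.60 and 16.55 in Pan02OE, 16.63 and 16.55 in Pan02OE-CTL, 16.32 and 16.15 in the arrays labelled Pan02KD, and 16.09 and 15.91 in Pan02KD-CTL. Again both lines of the expression system read higher than both of the other. The test was not passed between Pan02OE and Pan02KD-CTL (0.58, adjusted p = 0.051) or the arrays labelled Pan02KD (0.34, adjusted p = 0.16). Nor was it passed between the arrays labelled Pan02KD and Pan02OE-CTL (−0.35, adjusted p = 0.22). Against the own control, Ankrd1 differed by −0.01 in Pan02OE (95% interval −0.34 to 0.32) and by 0.24 in the arrays labelled Pan02KD (−0.09 to 0.57, adjusted p = 0.36). Between the controls it was lower in Pan02KD-CTL (−0.59, SE 0.15, adjusted p = 0.023), with differences of −0.54 within normal medium and −0.64 within H2O2. Without any 1 array of either control the difference in Ankrd1 was −0.63 to −0.55, and the call was lost, with adjusted p from 0.057 to 0.15.

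Across the 8 arrays, the 3 YAP target genes did not share 1 order of lines. Pearson's r was 0.76 between Ccn1 and Ankrd1, 0.56 between Ccn1 and Ccn2, and −0.03 between Ccn2 and Ankrd1, as a description of 8 arrays that come in pairs from 4 lines. Acta2 correlated with Ccn2 at −0.50.

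**Figure D2:**
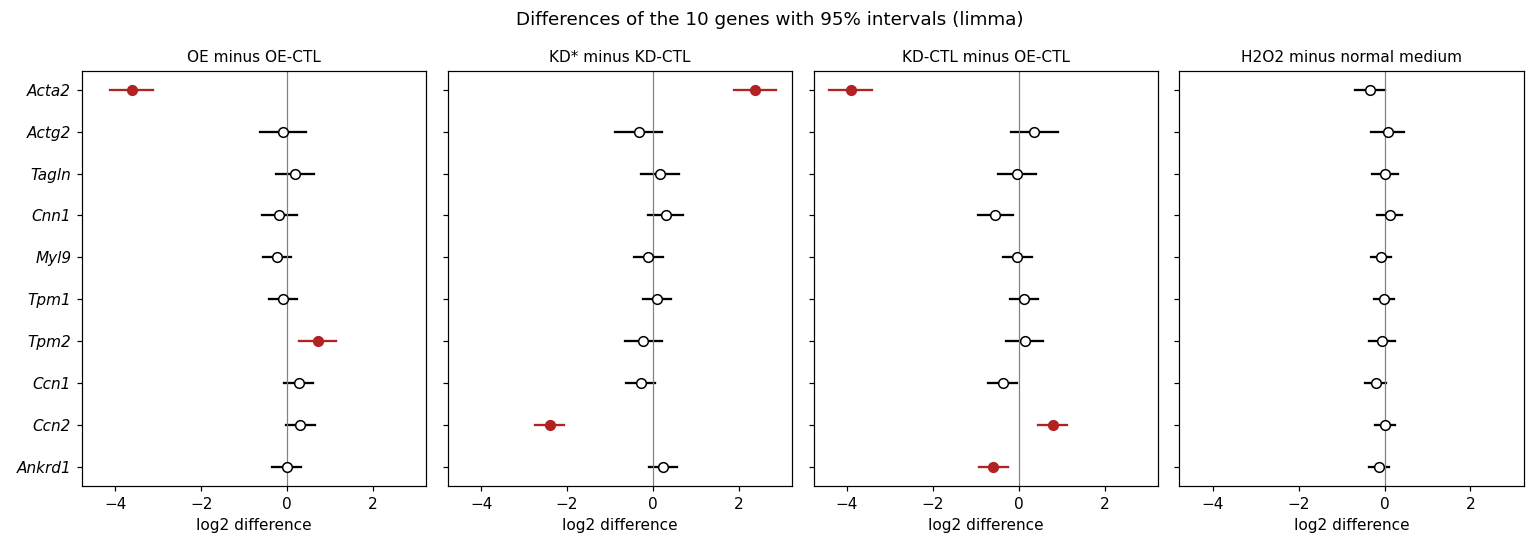
Log2 difference (x axis) of each of the 10 genes (y axis) with its 95% interval from the limma model, for each system against its own control, for the control lines against each other, and for H2O2 against normal medium. KD* marks the arrays labelled Pan02KD, in which Nlrx1 did not read lower, and filled red points passed at an adjusted p under 0.05. Acta2 lies at −3.62, 2.38 and −3.92 in the first 3 panels, Ccn2 at −2.40 in the second, and no gene passed in the H2O2 panel.

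The control lines were compared because they share a parent line and neither was made to alter NLRX1. Of the 10 genes, 3 passed there, Ccn2 higher in Pan02KD-CTL and Acta2 and Ankrd1 lower, against 16.9% of all genes. For each system against the other's control, 1 of the 10 passed between Pan02OE and Pan02KD-CTL, Ccn1 at 0.64 (SE 0.15, adjusted p = 0.037), against 6.37% of all genes, and this call was lost on leaving out any of the 8 arrays (0.56 to 0.72). Between the arrays labelled Pan02KD and Pan02OE-CTL 3 passed, Acta2, Ccn1 and Ccn2, all lower, against 7.63%. Pan02OE and the arrays labelled Pan02KD, which the study does not set against each other because the systems differ, were added after the data had been seen, to order the lines. There 4 of the 10 passed, against 18.3% of all genes. Acta2 was lower in Pan02OE (−2.08, adjusted p = 2.4e-04, at least 1.48-fold), and Ccn2 (1.92, 4.1e-05, at least 2.47-fold), Ccn1 (0.92, 0.0024) and Tpm2 (0.79, 0.019) were higher. The Tpm2 call was lost without the H2O2 array of either line (0.63 and 0.59, adjusted p = 0.17 and 0.20).

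With H2O2 for 24 hours, the limma test passed for 0 of the 10 genes and for 0 of all 19505 genes (0%), of which 1231 had an unadjusted p under 0.05, with none of the 10 among them. The largest difference was that of Acta2, −0.35 (95% interval −0.70 to 0.00, adjusted p = 0.78), lower in 3 of 4 lines. Of these, Pan02OE and Pan02KD-CTL lie below background in both media, and their order between media is unread. In the lines above it, Acta2 was lower by 0.90 in Pan02OE-CTL and differed by 0.02 in the arrays labelled Pan02KD. Ccn1 (−0.21, SE 0.11, adjusted p = 0.80) and Ankrd1 (−0.12, SE 0.10, adjusted p = 0.87) were lower in H2O2 in 4 of 4 lines. Ccn2 differed between media by at most 0.11 in a line.

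Other contractile and actin genes stood beside the members. Of 27 measured, 3 rose and 4 fell in Pan02OE, with 3 higher and 0 lower under the knockdown label, where 16.5% and 13.6% of all genes passed. Cald1, the gene of the actin-binding protein caldesmon, fell in Pan02OE from 14.47 to 11.56 (−2.91, SE 0.17, adjusted p = 9.4e-06) and read 13.80 and 13.61 under the knockdown label and in its control. Cnn2, a calponin of non-muscle cells, fell in Pan02OE (−1.16) and rose in the arrays labelled Pan02KD (1.01), as did the regulatory light chain Myl12b (−0.70 and 0.61). Myl6, an essential light chain, rose in Pan02OE by 0.74. The focal adhesion gene Zyx rose in the arrays labelled Pan02KD by 0.75. Between the controls, Pan02KD-CTL was lower in Cald1 (−0.855, adjusted p = 0.009), Cnn2 (−2.29, adjusted p = 9.1e-05) and Myl12b (−0.89, adjusted p = 0.003). Myl6 (0.30, adjusted p = 0.22) and Zyx (−0.52, adjusted p = 0.11) did not pass there. The list's medians were 0.12 and 0.06, against 0.04 and 0.00 over all genes.

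Of the SRF, YAP and TEAD regulators, Tead2 and Tead3 passed in both comparisons with the own control, where 16.5% and 13.6% of all genes passed. Whether these regulators drive the members in these cells was not tested. Srf, Mrtfa, Mrtfb and Myocd passed in neither comparison with the own control, and neither did Yap1, Wwtr1 (which encodes TAZ), Tead1 and Tead4. Myocd and Tead4 lay below background in all 4 lines and are unread. Across systems, Wwtr1 was higher in Pan02OE than in Pan02KD-CTL (0.67, adjusted p = 0.037) and the arrays labelled Pan02KD (0.66, adjusted p = 0.016). Mrtfa was higher in Pan02OE than in the latter (0.76, adjusted p = 0.025). Srf, Mrtfb, Yap1 and Tead1 passed in none of the 6 pairs of lines. Yap1 read between 9.08 and 9.48 over the 4 lines. Tead2 fell in Pan02OE (−2.54, SE 0.31, adjusted p = 5.6e-04) and rose in the arrays labelled Pan02KD (1.70, SE 0.31, adjusted p = 0.0062, at least 2.36-fold as Pan02KD-CTL is below background). Tead3 fell by 0.71 and rose by 0.68 in the same comparisons, and was lower in Pan02KD-CTL than in Pan02OE-CTL (−0.75, adjusted p = 0.024). The line means of Tead2 were 10.02 in Pan02OE-CTL, 8.72 in the arrays labelled Pan02KD, 7.49 in Pan02OE and 7.02 in Pan02KD-CTL. As for Acta2, Pan02OE and Pan02KD-CTL did not separate (0.47, SE 0.31, adjusted p = 0.47).

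Among 15 SRF and MRTF factors and targets, 1 rose and 0 fell in Pan02OE, while under the knockdown label 0 were higher and 6 lower, where 16.5% and 13.6% of all genes passed. The medians of the list were 0.23 and −0.48, against 0.04 and 0.00 over all genes. Fosb, an AP-1 subunit induced by serum, rose in Pan02OE (1.61, SE 0.36, adjusted p = 0.015) and fell in the arrays labelled Pan02KD (−2.51, SE 0.36, adjusted p = 0.0020), where it lay below background. The immediate-early factors Egr2 (−1.99) and Egr1 (−1.57) fell there too, and so did Fblim1 (−0.92), which encodes the focal adhesion protein migfilin. Between the controls, Pan02KD-CTL was lower in Egr1 (−1.82, adjusted p = 7.6e-04) and Egr2 (−1.32, adjusted p = 0.0054). It was higher in Fblim1 (0.90, adjusted p = 0.011), and Fosb did not pass (0.13, adjusted p = 0.87).

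In the Hippo pathway, 1 of 21 measured genes rose and 5 fell in Pan02OE. Under the knockdown label 3 were higher and 2 lower, and the shares over all genes were 16.5% and 13.6%. Besides Tead2 and Tead3, Nf2, the gene of the upstream regulator merlin, fell in Pan02OE (−1.30), and Mob1a, a cofactor of the LATS kinases, fell there (−0.71) and rose under the knockdown label (0.65). Between the controls, Nf2 was lower in Pan02KD-CTL (−0.93, adjusted p = 0.0025) and Mob1a did not pass (−0.495, adjusted p = 0.063). Stk4, which encodes the Hippo kinase MST1, fell in the arrays labelled Pan02KD (−0.75). It lay below background there (7.27, against 8.01 in Pan02KD-CTL), so the size of this fall is unread. Amotl1, a YAP-binding angiomotin, passed as lower there too (−1.08) but lay below background in all 4 lines.

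Other YAP target genes were divided. Of 19, 1 rose and 7 fell in Pan02OE, with 2 and 2 in the arrays labelled Pan02KD, beside 16.5% and 13.6% of all genes in either direction. F3, the tissue factor gene, rose in Pan02OE by 1.56 (SE 0.19, adjusted p = 5.6e-04) and fell in the arrays labelled Pan02KD by 1.30 (SE 0.19, adjusted p = 0.0021). Amotl2, an angiomotin that restrains YAP, went the other way (−1.54 and 1.30), as did Dock5, a Rac activator (−1.24 and 1.10). Between the controls, Pan02KD-CTL was lower in Amotl2 (−1.45, adjusted p = 1.9e-04) and Dock5 (−1.78, adjusted p = 1.1e-04). F3 did not pass there (0.44, adjusted p = 0.17). The directions of F3, Amotl2 and Dock5, like those of every gene here, cannot be told apart from differences between the 4 transduced populations. Gadd45a, a stress-induced growth arrest gene, fell in Pan02OE (−1.15), and Crim1, a membrane protein that binds BMPs, fell in both comparisons (−0.89 and −0.66). Of 6 further genes of the CCN and Ankrd1 families, 1 lay above background, Ccn4, which rose under the knockdown label by 0.82 (SE 0.20, adjusted p = 0.027). Ccn4 was also lower in Pan02KD-CTL than in Pan02OE-CTL (−1.23, adjusted p = 0.003). Its line means were 12.94 in Pan02OE-CTL, 12.59 in Pan02OE, 12.54 in the arrays labelled Pan02KD and 11.71 in Pan02KD-CTL.

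**Figure D3:**
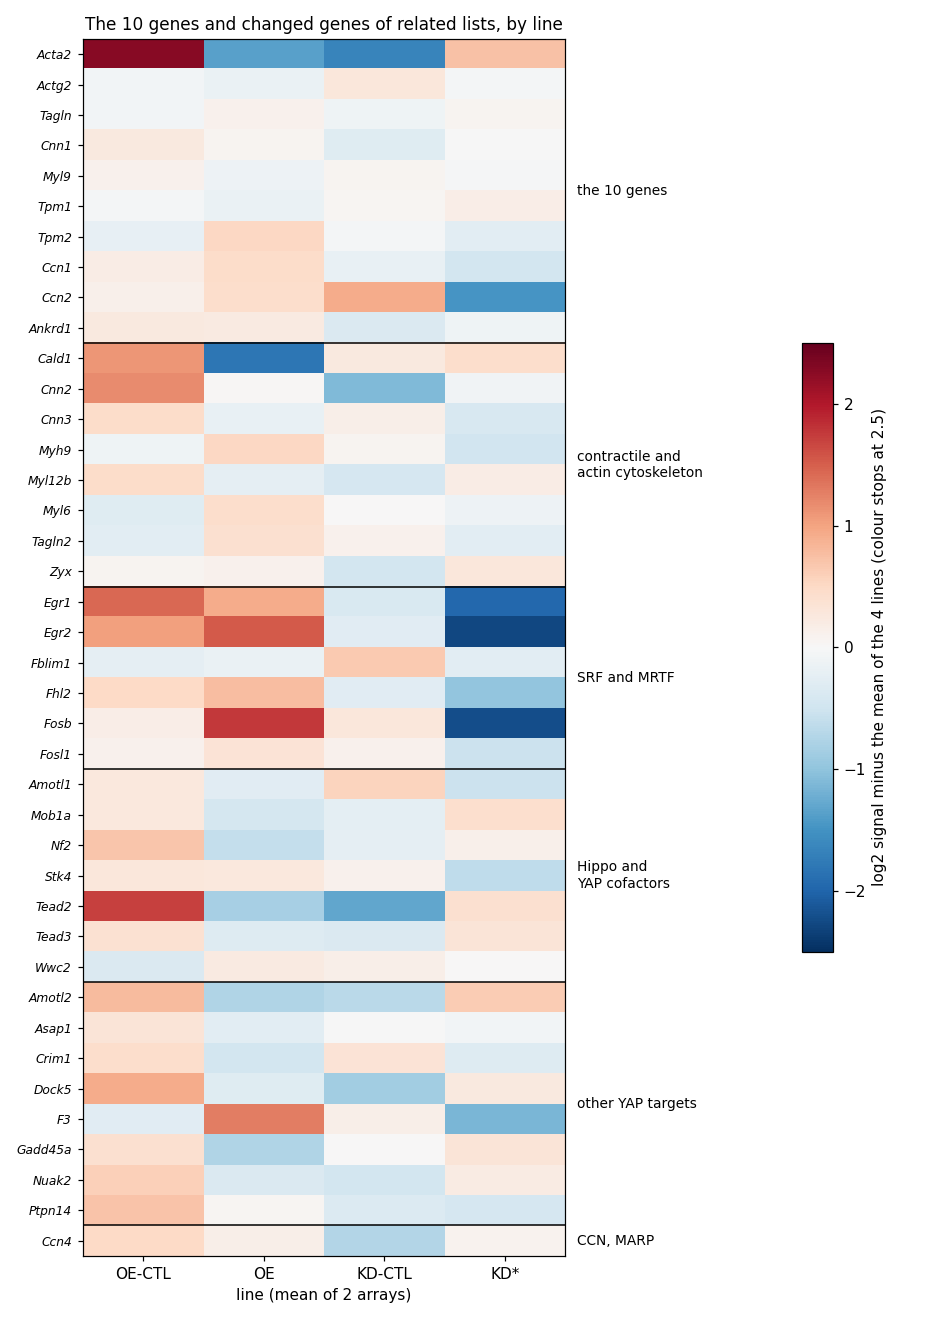
Line means of log2 signal minus the mean of the 4 lines (color, stopping at 2.5) for the 10 genes and for the genes of the 5 lists described above that passed in the Pan02OE or the Pan02KD comparison. KD* marks the arrays labelled Pan02KD, in which Nlrx1 did not read lower, and names at the right give the list. Acta2, Tead2 and Amotl2 are highest in Pan02OE-CTL, while Ccn2, Fosb and F3 are lowest under the knockdown label.

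Over the 8 arrays, the named genes whose pattern was most like that of Acta2 were Wipi1, an autophagy gene (Pearson's r = 0.989), Smap2 (0.989), App, the amyloid precursor protein gene (0.987), Lrrc75a (0.987) and Cox10, which acts in heme A synthesis (0.987). Each was highest in Pan02OE-CTL, next in the arrays labelled Pan02KD, and lowest in the other two lines. Wipi1, for example, read 10.30, 9.06, 7.71 and 7.68 in Pan02OE-CTL, the arrays labelled Pan02KD, Pan02OE and Pan02KD-CTL. Most like Ccn2 were Lin7c, a scaffold protein gene (0.985), Gramd1a, a cholesterol transporter gene (0.983), Gpr137b-ps (0.982), Rc3h2, which encodes roquin-2 (0.982), and Klrg2 (0.979). All 5 were lowest in the arrays labelled Pan02KD. These values were picked as the highest among the named genes above background and have no test.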

How the data were processed

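The deposited values are log2 probe set signals, which the authors made with the Transcriptome Analysis Console from Clariom S arrays; its version, summarization and normalization are not given in the sources used here. Of 28846 probe sets 6640 are controls, and 19572 of the others carry 1 gene symbol. The brightest per gene was kept (19505 genes). A ninth sample, the manufacturer's control RNA, has an empty column and was not used. Array medians were 6.51 to 6.58, and no further scaling was applied. Depth does not apply to arrays, and their number limits the precision.

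Arrays were assigned to lines and media by their titles. limma 3.58.1 in R 4.3.3 fitted line and medium as additive terms over 8 arrays (3 residual and 6.2 prior degrees of freedom), with Benjamini-Hochberg adjustment over 19505 genes in each of 8 comparisons and was tested on simulated data. Where a line lay below the brightest background probe set, a fold was computed against that value. Line and transduction event cannot be told apart. The members and lists were chosen with earlier results of these data known. All members are named, and of each list up to 4 genes with the largest differences among those that passed in each comparison with the own control, plus the regulators. The promoter motifs, and Tead2 as a gene for which a bound is given, were chosen after the data had been seen. One further list is not reported here. Alternatives were median centering, cyclic loess, filters at background or the 40th percentile of signal, the mean of probe sets, trend and robust moderation, no medium term, and leaving out each array.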

Additional observations from a re-analysis of the deposited data

Results flagged for a closer look

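For 3 of the 10 genes, the difference between Pan02OE and its control was itself different from that between the arrays labelled Pan02KD, in which Nlrx1 did not read lower, and their control (limma, first minus second, where 22.3% of all genes passed). For Acta2 it was −6.00 on the log2 scale (SE 0.31, adjusted p = 2.2e-06), from −3.62 and 2.38, and both arrays of each line showed each direction. Since Pan02OE and Pan02KD-CTL lie below background for Acta2, what was measured is a bound, a difference of −2.67 or beyond. For Ccn2 it was 2.71 (SE 0.21, adjusted p = 2.6e-05), from 0.31 and −2.40, of which the first did not pass on its own, and at least 2.10 since the arrays labelled Pan02KD lie below background. For Tpm2 it was 0.93 (SE 0.27, adjusted p = 0.035), from 0.72 and −0.22, and it was lost on leaving out any of 4 arrays, the Pan02OE-CTL or Pan02KD-CTL array in normal medium or the Pan02OE or Pan02KD array in H2O2 (0.74 to 0.77, adjusted p 0.11 to 0.16). The control lines differ from each other in Acta2 and Ccn2. For all 3 genes, the results cannot be told apart from differences between the 4 transduced populations.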

How the results depend on the processing

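Over 15 alternatives, 1126 single differences of the 10 genes were recomputed. Of these 1082 stayed on their side of the threshold, 29 no longer passed, 15 newly passed and 0 changed direction while called. The number of the 10 genes that passed between Pan02OE and Pan02OE-CTL ran from 1 to 2 on leaving out 1 array, and between the controls from 1 to 3, the 1 without the Pan02OE-CTL array in H2O2. Between Pan02OE and Pan02KD-CTL, where 1 passed, the count was 2 with centered arrays, 0 with cyclic loess, 3 with genes above background, 2 above the 40th percentile of signal, 3 with trend and robust moderation, 0 without the medium term and 0 without any 1 array. The other counts stayed within 1.5 times. The causes were not tested. Medium pairs the arrays of different lines and is a term of the fit. No paired analysis was possible beyond that because the labels give no replicate numbers. Signals near the background limit Acta2 and Ccn2 to lower bounds and leave Actg2, Tagln, Cnn1 and Myl9 unread.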
